A study of Homo sapiens with 27 samples.

Results

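The genes described here are 10 components and targets of the Hippo pathway, which senses cell density: the coactivators YAP1 and WWTR1 (the gene of TAZ), their DNA-binding partner TEAD1, the kinases LATS1 and LATS2, the scaffold proteins AMOTL1, AMOTL2 and AJUBA, and the target genes ANKRD1 and AXL. They were taken by name, as 10 of the 55882 gene symbols in the count files: the rule has no threshold on measured values, but the genes and the lists below were chosen with earlier results of these data known. Poly(A) RNA was sequenced from U2OS cells, a human osteosarcoma line, in 27 libraries: 3 stable lines, each at 3 stages of confluence, with 3 independent biological replicates in each of the 9 groups. The study asked which genes depend on the matrix metalloprotease MMP-2 as the cells expand, so the lines were a control that carried the empty pLKO.1 vector (labelled WT by the submitters) and the lines MMP2sh1 and MMP2sh2, which expressed different short hairpin RNAs against MMP2 (hairpins 23 and 26 of the labels). All 3 lines were made by lentiviral transduction and puromycin selection, and cells were plated at 30% confluence and collected when subconfluent (day −2), at confluence (day 0) and when overconfluent (day 2).

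In the Hippo pathway, contact between neighbouring cells and other inputs activate the MST and LATS kinases, and LATS1 and LATS2 phosphorylate YAP and TAZ, which are then held in the cytoplasm or degraded. Where the kinases are inactive, YAP and TAZ enter the nucleus, bind TEAD transcription factors and switch on genes of growth, adhesion and the cytoskeleton. Several targets, among them LATS2 and AMOTL2, encode inhibitors of YAP and TAZ and so form a feedback loop. This regulation acts largely on the proteins, whereas the values below are messenger RNA levels.

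The libraries held 33580129 to 59374327 counts on genes (median 40075178), and a member had between 1011 and 45809 of them. Over the 90 groups of member values, the SD of 3 replicates was 0.417% to 12.3% of the mean, with a median of 3.11%. MMP2 itself was at 17.3% to 19.8% of the control in MMP2sh1 and at 48.6% to 61.9% in MMP2sh2 across the 3 stages. The mesenchymal and osteoblast markers VIM, COL1A1, SPARC and RUNX2 were well expressed in each of the 27 libraries, whereas ALPL was at 0.397 to 6.98 CPM and was called lower over the whole expansion of the control (log2 change −1.18, adjusted p = 5.62e-05 in edgeR), and COL1A2, BGLAP and SP7 did not exceed 0.684, 0.570 and 0.168 CPM (counts scaled to library size). Of the other lists, the 3 haematopoietic markers summed to at most 1.56 CPM, the 2 endothelial markers in the files to at most 5.02 CPM, and the hepatic marker ALB was at 0 in 24 of the 27 libraries. The 4 epithelial markers summed to 7.15 to 11.5 CPM in subconfluent, 7.80 to 14.7 CPM in confluent and 13.7 to 18.8 CPM in overconfluent libraries, and their part in the results below was not tested.

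TEAD factors bind the letters GGAATG, and the promoters of members were searched for them on both strands because several members are known targets of YAP and TAZ. RefSeq promoters (GRCh38.p14, 250 bases before to 50 after the start, 300 bases in all) were held for 9 of the 10 members, in 14 entries. TEAD1 had no entry. GGAATG, or its reverse complement CATTCC, was found in 6 of the 14 entries, belonging to 6 members (YAP1, LATS2, AMOTL2, AJUBA, ANKRD1 and AXL), and in 14.0% of the 35116 promoters of the table. The entries of WWTR1, LATS1 and AMOTL1 did not hold these letters. In AMOTL2, AJUBA and AXL only the second of 2 entries held a match, and the first entry did not. The matching promoters of ANKRD1, which holds 2 matches, AMOTL2, LATS2 and AXL are shown, and those of YAP1 and AJUBA are not. The match is in capitals (CATTCC in AMOTL2 and AXL), and the sequences are read 5′ to 3′ on the strand of the gene.
ANKRD1 promoter, chr10:90921038-90921337, minus strand, matches starting at −220 and −128 from the start: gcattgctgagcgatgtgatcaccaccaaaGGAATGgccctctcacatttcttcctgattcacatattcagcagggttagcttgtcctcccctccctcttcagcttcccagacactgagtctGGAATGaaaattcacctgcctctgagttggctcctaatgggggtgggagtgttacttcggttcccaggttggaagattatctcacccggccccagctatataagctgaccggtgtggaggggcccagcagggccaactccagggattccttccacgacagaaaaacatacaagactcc
AMOTL2 promoter (the second of 2 entries), chr3:134374398-134374697, minus strand, match starting at −69: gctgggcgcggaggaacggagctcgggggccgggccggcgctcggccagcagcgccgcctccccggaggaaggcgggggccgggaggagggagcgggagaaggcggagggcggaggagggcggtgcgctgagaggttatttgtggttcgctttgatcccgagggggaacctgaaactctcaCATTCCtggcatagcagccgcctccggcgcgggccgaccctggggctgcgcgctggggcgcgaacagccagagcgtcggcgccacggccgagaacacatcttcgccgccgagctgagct
LATS2 promoter, chr13:21061537-21061836, minus strand, match starting 10 bases into the transcript: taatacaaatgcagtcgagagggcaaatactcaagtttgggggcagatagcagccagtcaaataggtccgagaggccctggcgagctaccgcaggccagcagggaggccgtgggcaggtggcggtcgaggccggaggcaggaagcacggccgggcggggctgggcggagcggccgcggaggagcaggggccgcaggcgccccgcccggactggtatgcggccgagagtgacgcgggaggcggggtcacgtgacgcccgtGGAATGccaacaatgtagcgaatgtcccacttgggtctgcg
AXL promoter (the second of 2 entries), chr19:41226505-41226804, plus strand, match starting at −212: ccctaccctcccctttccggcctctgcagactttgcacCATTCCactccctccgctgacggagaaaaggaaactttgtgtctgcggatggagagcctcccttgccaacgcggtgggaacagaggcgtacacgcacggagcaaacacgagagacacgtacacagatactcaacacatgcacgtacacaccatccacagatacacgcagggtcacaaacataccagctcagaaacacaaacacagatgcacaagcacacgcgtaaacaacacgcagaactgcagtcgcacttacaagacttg
WWTR1 promoter (the second of 2 entries), chr3:149657976-149658275, minus strand, shown for comparison and without a match: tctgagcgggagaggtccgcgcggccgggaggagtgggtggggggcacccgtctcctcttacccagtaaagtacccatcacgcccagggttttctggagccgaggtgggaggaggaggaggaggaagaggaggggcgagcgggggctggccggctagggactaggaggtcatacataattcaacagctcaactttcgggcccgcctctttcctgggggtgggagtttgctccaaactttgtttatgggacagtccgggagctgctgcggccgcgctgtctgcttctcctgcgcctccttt
A match describes these letters only and was not tested as a binding site. Matches did not follow the direction of change in each member. Over the whole expansion of the control, YAP1 held a match and was not called, and LATS1 held none and was called lower.

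As the cells expanded, WWTR1 rose 3.47-fold to 4.40-fold and AMOTL1 rose 1.25-fold to 1.62-fold in the 3 lines, whereas AXL, AJUBA and AMOTL2 fell to between 37.6% and 50.2% of their subconfluent mean and LATS2 to between 70.5% and 78.9%. These 6 genes were called in the same direction in each of the 3 lines (2 higher, 4 lower). Of all genes tested, 54.7% to 56.8% were called in each line, in either direction. The share of all genes called in the same direction in all 3 lines was not computed. ANKRD1 rose to confluence and fell afterwards, and YAP1, TEAD1 and LATS1 moved by at most 0.33 on the log2 scale over the whole expansion. A gene was called where the adjusted p (edgeR quasi-likelihood test, Benjamini-Hochberg over all genes tested) was under 0.05, and levels are CPM scaled with TMM factors. In bulk RNA, a fall in a gene cannot be told apart from fewer cells that express it.

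Many genes changed with density in these cells, so the members' calls stand beside a large background. In the control line, 8 of the 10 members were called between subconfluent and overconfluent cells (2 higher, 6 lower), beside 56.8% of the 19099 genes tested. For confluent against subconfluent control cells 7 members were called (2 higher, 5 lower) beside 35.5% of genes, and for overconfluent against confluent cells 8 (3 higher, 5 lower) beside 41.4%. In MMP2sh1, 9 members were called over the whole expansion (4 higher, 5 lower) beside 54.9% of genes, 6 to confluence (3 higher, 3 lower) beside 32.7%, and 9 past confluence (4 higher, 5 lower) beside 46.0%. In MMP2sh2, 7 were called over the whole expansion (3 higher, 4 lower) beside 54.7%, 7 to confluence (3 higher, 4 lower) beside 30.3%, and 9 past confluence (3 higher, 6 lower) beside 45.5%. Over the whole expansion of the control the median absolute log2 change of the members, 0.37, was below that of all genes tested, 0.41, while their median signed change was −0.17 beside 0.03. The changes of single members in that comparison ranged from −1.41 to 1.79 on the log2 scale. A list of 20 proliferation genes moved over the same interval, with 1 higher, 15 lower and 4 not called in the control (median −0.35 on the log2 scale), and its part in the members' changes was not tested. The share of counts on mitochondrial genes was 4.16% to 5.30% in subconfluent and 5.49% to 6.37% in overconfluent control libraries, without overlap, whereas the ranges overlapped in MMP2sh1 (4.24% to 6.55% against 6.53% to 7.15%) and in MMP2sh2 (5.09% to 6.20% against 6.10% to 6.41%). Its part was not tested either.

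**Figure D1:**
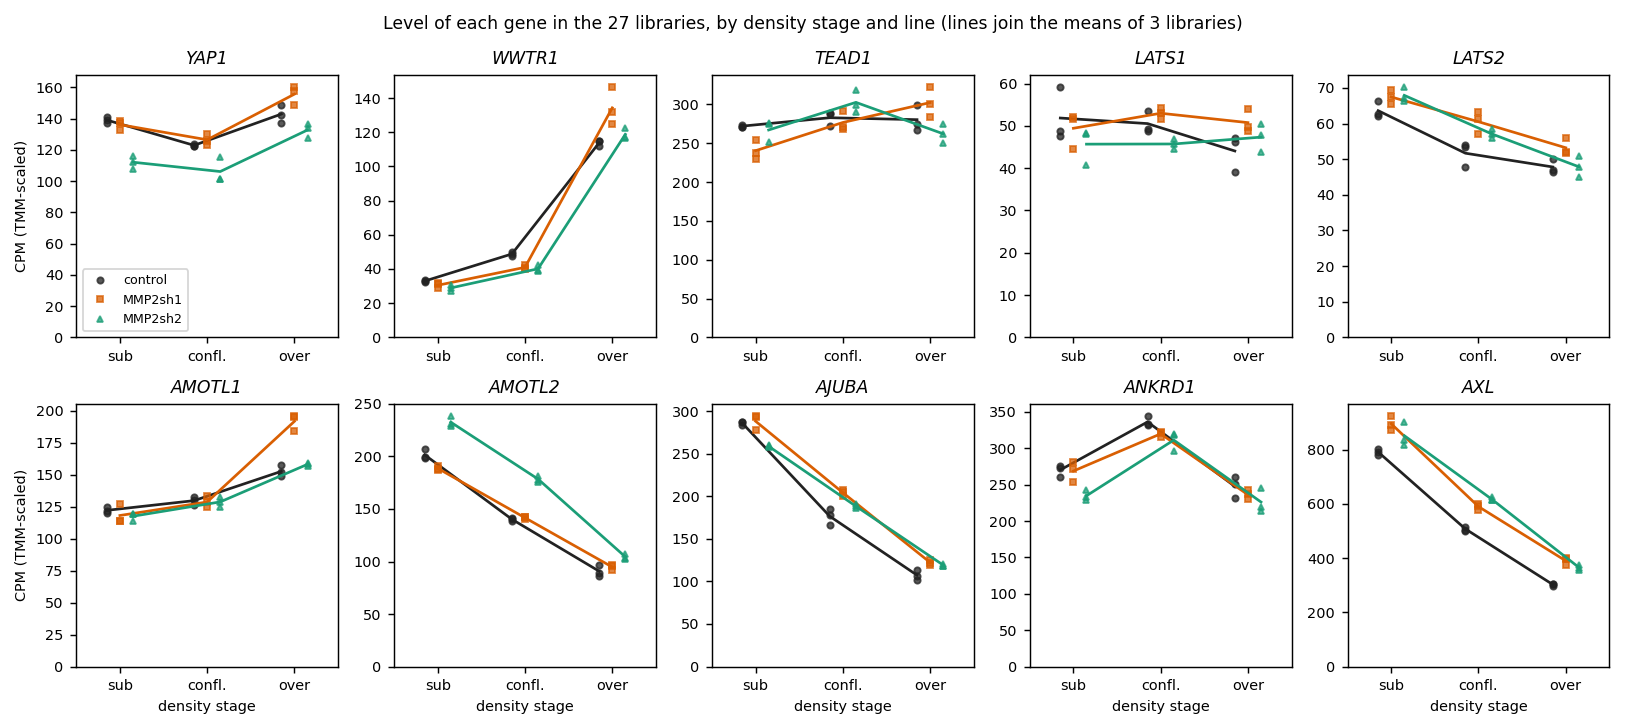
TMM-scaled CPM (vertical axis, from 0) of each of the 10 genes in the 27 libraries by density stage (horizontal axis) and line; points are libraries and lines join the means of 3 replicates. WWTR1 and AMOTL1 end above their subconfluent level, AXL, AJUBA, AMOTL2 and LATS2 end below it, and ANKRD1 is highest at confluence in each line.

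The coactivators YAP1 and WWTR1 behaved differently. In the control line, WWTR1 was measured at 33.3, 32.3 and 33.2 CPM in subconfluent cells, at 50.2, 47.4 and 48.7 CPM at confluence and at 115, 115 and 112 CPM in overconfluent cells. The 3 stages did not overlap, and the log2 change was 0.57 ± 0.06 (SE, n = 3 per group, adjusted p = 3.09e-08 in edgeR) to confluence and 1.24 ± 0.05 (adjusted p = 5.50e-18) past it. Over the whole expansion WWTR1 rose by 1.79 ± 0.05 on the log2 scale in the control (adjusted p = 5.97e-20), by 2.14 ± 0.07 in MMP2sh1 (adjusted p = 8.35e-17) and by 2.04 ± 0.07 in MMP2sh2 (adjusted p = 2.23e-21). It remained called with every library left out in turn and under each other setting tried.

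YAP1 in the control was at 139, 137 and 141 CPM when subconfluent, at 124, 123 and 122 CPM at confluence and at 149, 137 and 143 CPM when overconfluent. The confluent libraries lay below the others without overlap, and the subconfluent and overconfluent libraries overlapped. YAP1 thus fell by 0.17 on the log2 scale to confluence (SE 0.05, adjusted p = 0.00355 in edgeR) and rose by 0.24 ± 0.05 after it (adjusted p = 0.000172), so that the difference over the whole expansion was 0.04 ± 0.05 (adjusted p = 0.453). The rise past confluence was also called in MMP2sh1, at 0.31 ± 0.05, and in MMP2sh2, at 0.35 ± 0.06. The whole expansion gave 0.19 ± 0.06 in MMP2sh1 (adjusted p = 0.00981), a call lost without its overconfluent replicate 2 (adjusted p = 0.0688), and 0.25 ± 0.06 in MMP2sh2 (adjusted p = 0.000831).

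Per kilobase of the canonical transcript (YAP1 5401 bases, WWTR1 5037 bases), the YAP1 level exceeded the WWTR1 level 3.94 ± 0.05 times in subconfluent control cells (SD, n = 3), 2.35 ± 0.06 times at confluence and 1.17 ± 0.05 times in overconfluent cells. The same ratio went from 4.17 ± 0.25 to 1.08 ± 0.07 in MMP2sh1 and from 3.62 ± 0.09 to 1.04 ± 0.04 in MMP2sh2. At high density the messages of both coactivators were therefore present at similar levels per length, with nearly all of the shift on the side of WWTR1. The scaling to length assumes that the canonical transcripts are the ones counted.

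TEAD1, which brings YAP and TAZ to DNA, was at 272, 271 and 274 CPM in subconfluent, 289, 288 and 272 CPM in confluent and 299, 268 and 275 CPM in overconfluent control cells. These stages overlapped. Its log2 difference over the whole expansion of the control was 0.05 ± 0.05 (adjusted p = 0.401 in edgeR). In MMP2sh1 it rose from 230, 254 and 237 CPM to 284, 301 and 322 CPM, without overlap and by 0.33 ± 0.06 on the log2 scale (adjusted p = 9.03e-05). In MMP2sh2 it was higher at confluence than before, by 0.18 ± 0.05 (adjusted p = 0.0118), and lower again when overconfluent, with a log2 difference of −0.18 ± 0.05 (adjusted p = 0.0026). The first of these calls was lost without MMP2sh2 confluent replicate 3 (adjusted p = 0.132). In MMP2sh1 the steps of TEAD1 were 0.21 ± 0.05 to confluence (adjusted p = 0.00371, and 0.052 without confluent replicate 1) and 0.14 ± 0.05 past it (adjusted p = 0.0273). The second of these had overlapping groups, and it was lost in the fit of all 27 libraries (adjusted p = 0.0502), with the replicate number as a block (0.0631) and without confluent or overconfluent replicate 2 or 3 (up to 0.158).

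Of the 10 genes listed as partners of YAP and TAZ (the coactivators, the TEAD factors and the VGLL cofactors that compete with them), 9 passed the filter, and in the control over the whole expansion 3 were higher, 3 lower and 3 not called, with a median of 0.04 beside 0.03 for all genes. Over all genes tested, 28.1% were called higher and 28.6% lower in that comparison. VGLL1 had no count in the 27 libraries. VGLL4, which competes with YAP and TAZ for TEAD factors, rose from 28.1 ± 1.59 CPM in subconfluent control cells (SD, n = 3) and 29.3 ± 2.35 CPM at confluence to 62.4 ± 2.62 CPM when overconfluent, a log2 change over the whole expansion of 1.16 ± 0.06 (adjusted p = 2.32e-14 in edgeR). TEAD4 fell from 124 ± 4.48 CPM to 55.0 ± 2.62 CPM, or by 1.17 ± 0.05 on the log2 scale, and the cofactor VGLL3 from 38.3 ± 0.754 CPM to 19.8 ± 1.79 CPM, or by 0.95 ± 0.08. Within the TEAD family of the control, TEAD4 fell, TEAD2, named after its value was seen, rose by 0.73 ± 0.06, and TEAD1 and TEAD3 were not called.

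The LATS kinases inhibit YAP and TAZ, and LATS2 is itself a target of them. LATS2 was at 62.0, 66.3 and 62.6 CPM in subconfluent, 53.9, 47.7 and 53.5 CPM in confluent and 50.2, 46.3 and 47.0 CPM in overconfluent control cells. The subconfluent libraries were the highest, without overlap, and the confluent and overconfluent libraries overlapped. Over the whole expansion LATS2 fell by 0.41 on the log2 scale in the control (SE 0.06, adjusted p = 1.54e-06 in edgeR), by 0.35 in MMP2sh1 (SE 0.07, adjusted p = 0.000172) and by 0.50 in MMP2sh2 (SE 0.07, adjusted p = 4.10e-07). These 3 calls held with every library left out in turn.

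LATS1 was at 47.6, 48.7 and 59.2 CPM in subconfluent and 46.2, 47.0 and 39.0 CPM in overconfluent control cells, and it fell by 0.23 on the log2 scale (SE 0.08, adjusted p = 0.0158 in edgeR). The highest and the lowest of these libraries decided the call: the change was −0.13 (adjusted p = 0.163) without subconfluent replicate 3 and −0.15 (adjusted p = 0.139) without overconfluent replicate 3. The step past confluence in the control, −0.18 ± 0.07, had an adjusted p of 0.0418 in edgeR, 0.074 in DESeq2 and up to 0.342 with libraries left out (confluent replicate 2 or 3, or overconfluent replicate 3). Without overconfluent replicate 3 that step was −0.09. In MMP2sh1 and MMP2sh2 the whole expansion gave 0.03 ± 0.08 and 0.06 ± 0.08 for LATS1, neither of them called.

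The kinase cassette as listed holds 7 genes (the LATS and MST kinases with their adaptors SAV1, MOB1A and MOB1B), all of them tested. In the control over the whole expansion 1 was higher, 3 were lower and 3 were not called. The median was −0.09 and the range −0.41 to 0.22 on the log2 scale. Over all genes tested, 28.1% were called higher and 28.6% lower in that comparison, with a median of 0.03. STK3 (MST2) rose by 0.22 ± 0.09, from 18.0 ± 1.91 CPM to 20.9 ± 1.54 CPM with overlapping groups (adjusted p = 0.0444 in edgeR). No gene of the cassette was called higher in DESeq2, in the fit of all 27 libraries, with median-of-ratios scaling, without the filter on low counts, or without subconfluent replicate 1 or 3 or overconfluent replicate 1 or 2. STK4 (MST1) fell by 0.19 in the control (SE 0.05, adjusted p = 0.00236). Its mean did not fall in MMP2sh1 (107 ± 3.94 to 114 ± 1.85 CPM) or MMP2sh2 (105 ± 7.31 to 106 ± 4.93 CPM). The cassette as a whole also differed between lines. In MMP2sh1 3 genes were higher and 1 lower (median 0.13), beside 27.3% of all genes higher and 27.7% lower. In MMP2sh2 2 were higher and 1 lower (median 0.06), beside 27.7% higher and 27.1% lower.

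AMOTL1 and AMOTL2 belong to the angiomotin family, proteins of cell junctions and the cytoskeleton that bind YAP and retain it outside the nucleus, and they moved in opposite directions. AMOTL2 was at 207, 199 and 198 CPM in subconfluent, 141, 139 and 141 CPM in confluent and 96.9, 89.0 and 86.4 CPM in overconfluent control cells. AMOTL1 was at 120, 122 and 125 CPM, then at 133, 130 and 127 CPM, and finally at 157, 152 and 149 CPM. In both genes no 2 stages overlapped in the control. AMOTL2 fell by 0.52 on the log2 scale to confluence (SE 0.04, adjusted p = 3.39e-10 in edgeR) and by 0.61 past it (SE 0.05, adjusted p = 4.71e-11), whereas AMOTL1 was 0.09 ± 0.05 higher at confluence (adjusted p = 0.12) and rose by 0.26 ± 0.05 past it (adjusted p = 6.05e-05). Over the whole expansion AMOTL2 fell by 1.15 in the control (SE 0.05), by 1.00 in MMP2sh1 (SE 0.06) and by 1.15 in MMP2sh2 (SE 0.06), while AMOTL1 rose by 0.33 ± 0.05, 0.70 ± 0.06 and 0.43 ± 0.06. Per kilobase of transcript, the AMOTL2 level was 3.04 ± 0.13 times that of AMOTL1 in subconfluent and 1.10 ± 0.03 times in overconfluent control cells (SD, n = 3).

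AJUBA, a LIM domain protein that binds LATS kinases and restrains them, was at 287, 287 and 284 CPM in subconfluent, 166, 178 and 185 CPM in confluent and 114, 107 and 102 CPM in overconfluent control cells. Each stage lay below the one before it without overlap. AJUBA fell by 0.69 on the log2 scale to confluence (SE 0.05, adjusted p = 2.73e-12 in edgeR) and by 0.70 past it (SE 0.05, adjusted p = 3.40e-12), and over the whole expansion by 1.41 in the control (SE 0.05), 1.24 in MMP2sh1 (SE 0.06) and 1.11 in MMP2sh2 (SE 0.06). Of the 7 listed junctional and LIM scaffolds, 1 was higher, 5 lower and 1 not called over the whole expansion of the control (median −0.43). Over all genes tested, 28.1% were called higher and 28.6% lower, with a median of 0.03. Besides AJUBA and AMOTL2 the lower scaffolds were LIMD1, WTIP and the phosphatase PTPN14. LIMD1 and WTIP, relatives of AJUBA, fell by 0.63 (SE 0.06, from 81.5 ± 1.65 CPM to 52.3 ± 2.12 CPM) and by 0.43 (SE 0.06). PTPN14 fell by 0.21 with overlapping groups (SE 0.06). PTPN14 was higher instead in MMP2sh1, by 0.49, and in MMP2sh2, by 0.25.

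**Figure D2:**
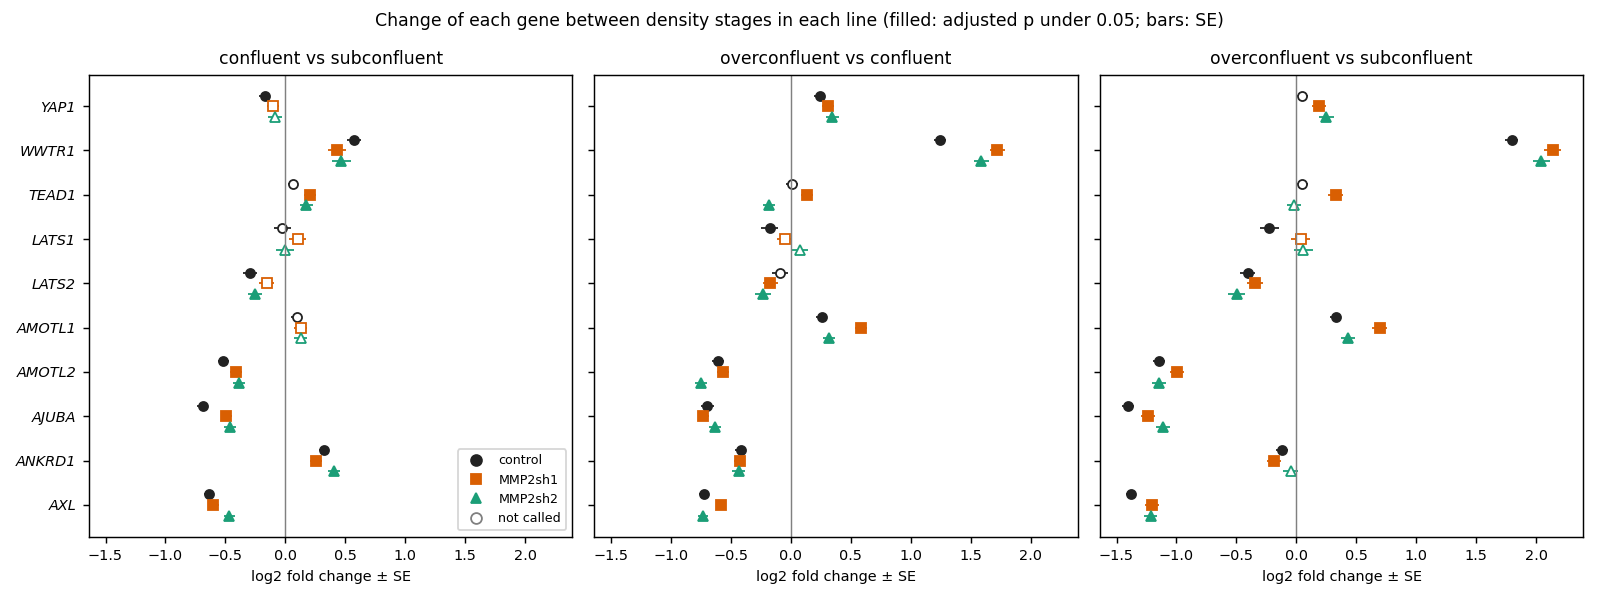
Log2 fold change with its SE (horizontal axis) of each of the 10 genes (vertical axis) between the stages named above each panel, in the 3 lines; filled symbols were called at an adjusted p under 0.05. WWTR1 lies furthest to the right in each panel, and AMOTL2, AJUBA and AXL lie left of 0 in all 3 lines and all 3 panels.

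Among the target genes, AXL, a receptor tyrosine kinase of growth and survival, was at 793, 803 and 779 CPM in subconfluent, 505, 502 and 516 CPM in confluent and 306, 305 and 297 CPM in overconfluent control cells. The 3 stages were widely separated beside the spread of replicates. The fall was 0.64 on the log2 scale to confluence (SE 0.04, adjusted p = 7.46e-13 in edgeR) and 0.72 past it (SE 0.04, adjusted p = 7.87e-15). Over the whole expansion AXL fell by 1.38 in the control (SE 0.04), by 1.20 in MMP2sh1 (SE 0.06) and by 1.21 in MMP2sh2 (SE 0.05), or to 38.2%, 43.6% and 42.9% of the subconfluent mean.

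ANKRD1, a nuclear ankyrin repeat protein and a widely used reporter of YAP activity, did not follow AXL. In the control it was at 273, 276 and 261 CPM in subconfluent, 344, 333 and 332 CPM in confluent and 252, 260 and 232 CPM in overconfluent cells. The confluent libraries were the highest in each line, without overlap with either neighbouring stage. ANKRD1 rose to confluence by 0.32 ± 0.04 on the log2 scale in the control (adjusted p = 7.84e-07 in edgeR), 0.25 ± 0.05 in MMP2sh1 and 0.40 ± 0.05 in MMP2sh2, and past confluence it fell by 0.42 (SE 0.05), 0.43 (SE 0.04) and 0.44 (SE 0.05). Its difference over the whole expansion was small, −0.12 ± 0.05 in the control (adjusted p = 0.0375), −0.19 ± 0.06 in MMP2sh1 (adjusted p = 0.00884) and −0.05 ± 0.06 in MMP2sh2 (adjusted p = 0.521). The control call was lost without subconfluent replicate 1 or 2 or overconfluent replicate 3 (adjusted p up to 0.245, with a change of −0.08 without the last) and with at least 10 counts required in every library (adjusted p = 0.0656), and the MMP2sh1 call without overconfluent replicate 2 (adjusted p = 0.0523).

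Of 22 genes listed as a signature of YAP and TAZ targets, which includes ANKRD1, AXL, AMOTL2 and LATS2, 20 were tested, and in the control over the whole expansion 2 were higher and 18 lower, with a median log2 change of −0.76 beside 0.03 for all genes tested. Of all genes, 28.1% were called higher and 28.6% lower in that comparison. Without the 4 members, 2 were higher and 14 lower among 16 genes. FJX1, the relative of the fly gene four-jointed, fell by 1.90 (SE 0.06) from 137 ± 7.58 CPM to 36.5 ± 1.19 CPM, and TGFB2, a secreted growth factor, by 1.72 (SE 0.05) from 208 ± 5.71 CPM to 62.9 ± 1.53 CPM. The matricellular gene CYR61 fell by 1.47 (SE 0.06), from 317 ± 25.0 CPM to 114 ± 9.28 CPM, whereas the best known target, CTGF, fell by only 0.15 (SE 0.05, adjusted p = 0.0192 in edgeR), from 148 ± 7.52 CPM to 133 ± 8.61 CPM. CTGF rose instead over the expansion of MMP2sh1, by 0.18 ± 0.06 (adjusted p = 0.0135), was not called in MMP2sh2 (−0.06 ± 0.06), and differed from the control in the interaction test for MMP2sh1 (0.33 ± 0.08, adjusted p = 0.00732). FOXF2 and ASAP1, named here after their values were seen, were the 2 genes that rose, by 0.46 ± 0.09 and 0.16 ± 0.05, and 1 gene was called higher without overconfluent replicate 1. FOXF2 fell instead in MMP2sh2, by 0.51 (SE 0.10). IGFBP3 and NT5E had at most 13 and 16 counts in a library and were not tested. In MMP2sh1 16 genes of the signature were lower and 2 higher (median −0.63), beside 27.7% of all genes lower and 27.3% higher, and in MMP2sh2 15 were lower and 2 higher (median −0.62), beside 27.1% lower and 27.7% higher.

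The fall was already present at confluence for part of the signature. To confluence 2 genes were higher, 13 lower and 5 not called in the control (median −0.30), beside 16.4% of all genes higher and 19.1% lower. Past confluence 1 was higher, 16 lower and 3 not called (median −0.51), beside 21.3% higher and 20.1% lower. The 20 proliferation genes gave 7 higher, 2 lower and 11 not called to confluence and 0 higher, 19 lower and 1 not called past it. Over the first step the median of the proliferation genes was −0.02.

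Among 16 listed regulators upstream of the kinases, 2 were higher, 7 lower and 7 not called over the whole expansion of the control, with a median of −0.09. WWC1 (KIBRA), which binds LATS kinases at the membrane, fell by 1.66 on the log2 scale (SE 0.06, adjusted p = 2.34e-18 in edgeR), from 121 ± 4.38 CPM to 38.2 ± 3.14 CPM. FRMD6 fell by 1.56 (SE 0.05) from 331 ± 7.32 CPM to 112 ± 6.62 CPM, and the protocadherin FAT4 by 1.52 (SE 0.12) from 26.8 ± 2.56 CPM to 9.33 ± 2.01 CPM. NF2 (merlin), which activates the kinases and was named after its value was seen, fell by 1.49 (SE 0.05). These 4 genes, which had the largest changes of the list, were also called lower in both knockdown lines. WWC3 and MAP4K4, named after their values were seen, were the 2 that rose, by 0.72 ± 0.13 and 0.39 ± 0.04. The 9 called of 16 stand beside 56.8% of all genes.

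**Figure D3:**
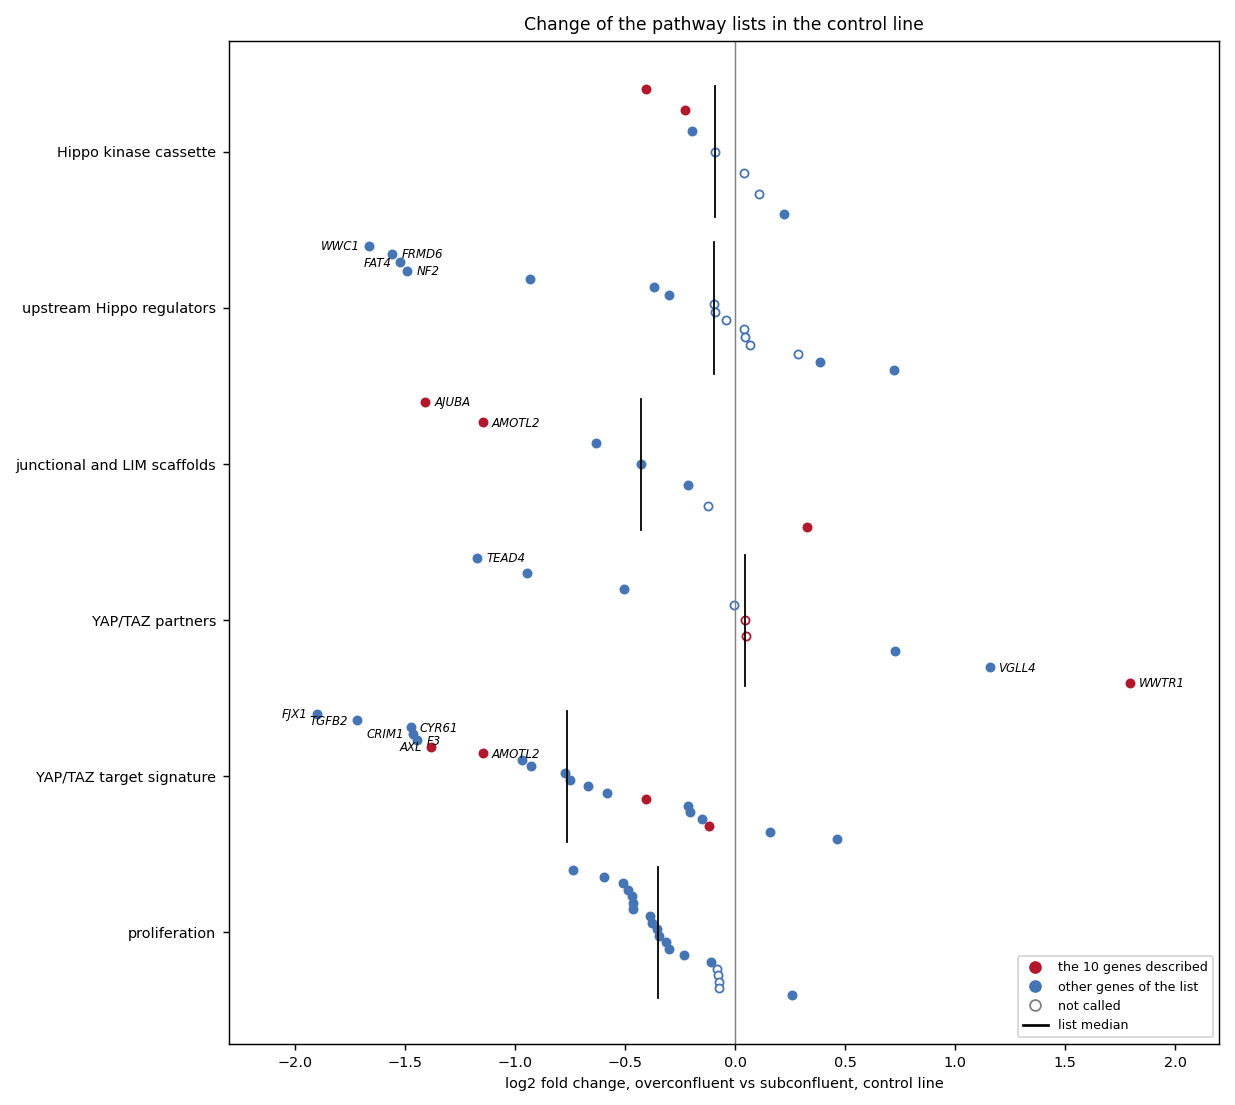
Log2 fold change of overconfluent against subconfluent control cells (horizontal axis) for the genes of each list (vertical axis); red points are members, blue points other genes, filled points were called and black bars are list medians. The target signature has its median at −0.76, the upstream regulators theirs at −0.09 with WWC1, FRMD6, FAT4 and NF2 far to the left, and WWTR1 and VGLL4 lie above 1.

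The knockdown lines were compared with the control at each stage, and since both were set against the same control libraries, their results are not independent. Of 60 member results 20 were called, and the largest was 0.36 on the log2 scale, beside up to 2.14 with density (WWTR1). Not every member changed less between lines than with density. YAP1 differed by −0.31 in subconfluent MMP2sh2, beside 0.04 to 0.25 over the whole expansion in the 3 lines. In subconfluent cells 2 of the 10 members were called in MMP2sh1 (1 higher, 1 lower) beside 11.6% of genes, and 3 in MMP2sh2 (1 higher, 2 lower) beside 11.0%. At confluence 4 were called in MMP2sh1 (3 higher, 1 lower) beside 16.8%, and 5 in MMP2sh2 (2 higher, 3 lower) beside 12.9%. In overconfluent cells 4 were called in MMP2sh1, all higher, beside 14.8%, and 2 in MMP2sh2, both higher, beside 6.32%. The mitochondrial share of the overconfluent MMP2sh1 libraries lay wholly above that of the overconfluent controls, while that of MMP2sh2 overlapped it, and its part in these differences was not tested.

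AXL was the member called most often. At confluence it was at 577, 600 and 593 CPM in MMP2sh1 and at 615, 624 and 614 CPM in MMP2sh2, above the 3 control libraries in both, and the log2 differences from the control were 0.21 ± 0.04 (adjusted p = 3.43e-05 in edgeR) and 0.27 ± 0.04 (adjusted p = 2.00e-06). In overconfluent cells it was at 375, 396 and 399 CPM in MMP2sh1 and at 358, 365 and 375 CPM in MMP2sh2, again without overlap with the control, and the differences were 0.36 ± 0.05 (adjusted p = 3.97e-06) and 0.27 ± 0.05 (adjusted p = 0.000143). In subconfluent cells AXL was higher by 0.18 ± 0.05 in MMP2sh1 (adjusted p = 0.0181), a call lost without any of the 3 control replicates or MMP2sh1 replicate 3 (adjusted p up to 0.0967), and the difference of 0.10 ± 0.05 in MMP2sh2 was not called (adjusted p = 0.211).

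WWTR1 was lower than in the control at confluence in both knockdown lines, at 42.5, 39.9 and 40.5 CPM in MMP2sh1 and 42.4, 38.8 and 39.2 CPM in MMP2sh2 beside 47.4 to 50.2 CPM in the control. The log2 differences were −0.25 ± 0.06 (adjusted p = 0.00292 in edgeR) and −0.30 ± 0.06 (adjusted p = 0.00136). In overconfluent cells it was higher in MMP2sh1, by 0.24 ± 0.06 (adjusted p = 0.00664), with libraries at 125, 132 and 146 CPM. Without the highest of them, replicate 3, the adjusted p was 0.0789. In MMP2sh2 the overconfluent difference was 0.06 ± 0.06 (adjusted p = 0.655).

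Other members differed from the control in 1 of the knockdown lines only, or in part of the stages. YAP1 was lower in MMP2sh2, at 108, 116 and 112 CPM in subconfluent cells (log2 difference −0.31 ± 0.05, adjusted p = 0.000569 in edgeR) and at 102, 101 and 115 CPM at confluence (−0.23 ± 0.05, adjusted p = 0.00234), while in MMP2sh1 its differences were between −0.03 and 0.12 and were not called. AMOTL2 was higher in MMP2sh2 at each stage, by 0.20 ± 0.05, 0.33 ± 0.04 and 0.20 ± 0.06. The confluent call (adjusted p = 9.15e-07) held with each library left out, the subconfluent call was lost without control replicate 2 (adjusted p = 0.0626), and the overconfluent call without control replicate 2 or 3 or MMP2sh2 replicate 1 or 2 (adjusted p up to 0.221). AMOTL1 was higher in overconfluent MMP2sh1, at 184, 195 and 196 CPM beside 149 to 157 CPM in the control (0.33 ± 0.05, adjusted p = 5.45e-05).

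AJUBA was higher in MMP2sh1 at confluence by 0.21 ± 0.04 (adjusted p = 0.000676 in edgeR) and in overconfluent cells by 0.19 ± 0.06 (adjusted p = 0.028), the latter call being lost without control or MMP2sh1 replicate 2 or 3 (adjusted p up to 0.188) and with the replicate number as a block (adjusted p = 0.0827). LATS2 was higher in confluent MMP2sh1 by 0.22 ± 0.06 (adjusted p = 0.00781), a call lost without replicate 2 of either line (adjusted p up to 0.0762). TEAD1 was lower in subconfluent MMP2sh1 with a log2 difference of −0.18 ± 0.05 (adjusted p = 0.0287), which was lost in 5 of 6 fits with a library left out (any control replicate, or MMP2sh1 replicate 1 or 3, adjusted p up to 0.114). ANKRD1 was lower in MMP2sh2, with a log2 difference of −0.21 ± 0.05 in subconfluent cells (adjusted p = 0.0103, up to 0.0838 without control replicate 1 or 2) and with a log2 difference of −0.13 ± 0.04 at confluence (adjusted p = 0.039). The confluent call was lost in 5 of 6 fits with a library left out (all but MMP2sh2 replicate 3, adjusted p up to 0.197), in the fit of all 27 libraries, without the filter on low counts and with the block. LATS1 was called in neither line at any stage.

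Between the knockdown lines, 3 members were called in subconfluent cells (2 higher and 1 lower in MMP2sh1) beside 10.7% of genes, 5 at confluence (3 higher, 2 lower) beside 18.5%, and 3 in overconfluent cells (3 higher) beside 7.86%. YAP1 was higher in MMP2sh1 than in MMP2sh2 at each stage, by 0.28 ± 0.06, 0.27 ± 0.05 and 0.23 ± 0.06 on the log2 scale, the last call being lost without overconfluent replicate 1 or 2 of MMP2sh2 or replicate 2 or 3 of MMP2sh1 (adjusted p in edgeR up to 0.0929). AMOTL2 was lower in MMP2sh1 in subconfluent cells, with a log2 difference of −0.30 ± 0.06 (adjusted p = 0.000784), and at confluence, with a log2 difference of −0.32 ± 0.04 (adjusted p = 3.09e-07). Against the control, the target CTGF was higher in MMP2sh1 at each stage, by 0.36 ± 0.06, 0.64 ± 0.05 and 0.69 ± 0.06, and in MMP2sh2 it was higher in subconfluent cells, by 0.18 ± 0.06 (adjusted p = 0.0324), and overconfluent cells, by 0.27 ± 0.06 (adjusted p = 0.000924). CYR61 was higher in MMP2sh2 at each stage, by 0.20 ± 0.06, 0.38 ± 0.04 and 0.39 ± 0.06, and in MMP2sh1 at confluence, by 0.21 ± 0.04, and in overconfluent cells, by 0.22 ± 0.06. The target signature was mixed. Of its 20 genes tested, MMP2sh1 had 4 higher and 2 lower when subconfluent, 8 and 2 at confluence, and 5 and 3 when overconfluent. In MMP2sh2, 6 were higher and 2 lower, then 9 and 2, and finally 9 and 3. Over all genes tested, 2.89% to 8.26% were called higher and 3.43% to 8.58% lower in these comparisons. The other genes of the signature were not called.

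**Figure D4:**
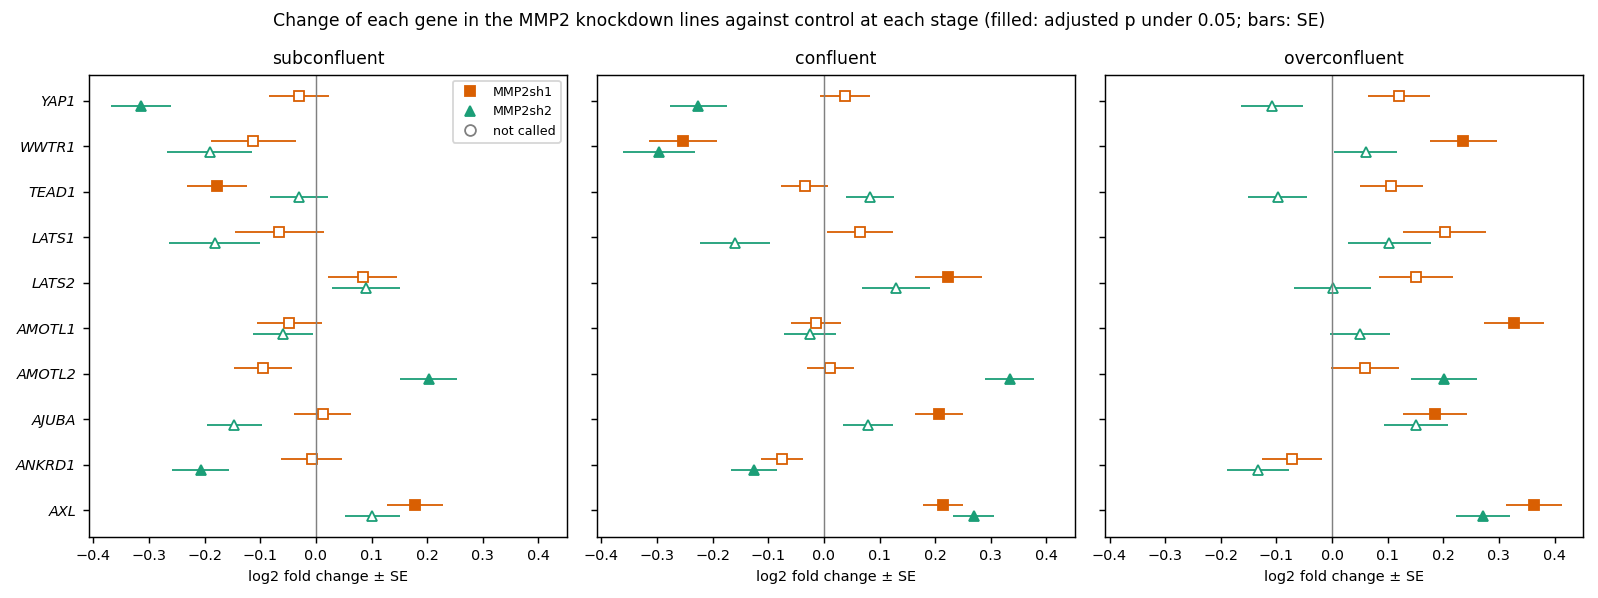
Log2 fold change with its SE (horizontal axis) of each of the 10 genes (vertical axis) in MMP2sh1 and MMP2sh2 against the control at each stage; filled symbols were called at an adjusted p under 0.05 and both lines share the control libraries. AXL lies right of 0 in both lines at each stage, and WWTR1 lies left of 0 in both lines before and at confluence.

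Whether the response to density itself differed from the control was tested with the interaction of line and stage over subconfluent and overconfluent cells. In MMP2sh1 3 members were called, all with a higher overconfluent to subconfluent ratio than in the control, beside 7.40% of the 20548 genes tested. These were AMOTL1, by 0.38 ± 0.08 on the log2 scale (adjusted p = 0.00216 in edgeR), WWTR1, by 0.35 ± 0.09 (adjusted p = 0.0141), and TEAD1, by 0.29 ± 0.08 (adjusted p = 0.0217). The AMOTL1 call held with each library left out, whereas the WWTR1 call was lost without control subconfluent replicate 1, MMP2sh1 subconfluent replicate 2 or MMP2sh1 overconfluent replicate 3 (adjusted p up to 0.0672). The TEAD1 call was lost without control subconfluent replicate 1, control overconfluent replicate 2 or 3, or replicate 3 of either MMP2sh1 group (adjusted p up to 0.0833). In MMP2sh2 AJUBA was called, by 0.29 ± 0.07 (adjusted p = 0.0106, and at most 0.0494 with a library left out), beside 4.98% of 20653 genes: it fell by 1.11 in that line and by 1.41 in the control.

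The levels per kilobase of canonical transcript show how the ranks of the members shifted. In subconfluent control cells AXL was at 168 ± 2.58 and ANKRD1 at 151 ± 4.45 CPM per kilobase (SD, n = 3), followed by AJUBA at 68.6, AMOTL2 at 41.4, TEAD1 at 28.9, YAP1 at 25.7, AMOTL1 at 13.6, LATS2 at 11.5, LATS1 at 7.04 and WWTR1 at 6.54. LATS1 and WWTR1, neighbours at the bottom, overlapped within their spread. In overconfluent control cells ANKRD1 led at 138 ± 8.21, before AXL at 64.2, TEAD1 at 29.8, YAP1 at 26.5, AJUBA at 25.8, WWTR1 at 22.6, AMOTL2 at 18.6, AMOTL1 at 17.0, LATS2 at 8.62 and LATS1 at 5.98. YAP1 and AJUBA lay within their spread of each other there. WWTR1 thus moved from the last to the sixth place.

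Over all 27 libraries, the log2 CPM of AXL and AJUBA had a Pearson r of 0.984, AXL and AMOTL2 one of 0.958, WWTR1 and AMOTL1 one of 0.936, and WWTR1 and AXL one of −0.942. These describe points that share their stage, line and library. By the same measure, the genes most like WWTR1 among 22107 were TTYH1 (0.989), SLC5A3, a transporter of myo-inositol (0.988), and the ETS transcription factor ETV4 (0.987). The genes most like AXL were PTPRN (0.995), MFN2, a GTPase of mitochondrial fusion (0.990), and CCDC85C (0.990). Those most like AJUBA were the mitochondrial enzyme ALDH1B1 (0.990), C1orf198 (0.988) and PVR, a surface protein of cell adhesion (0.987), and those most like AMOTL2 were a gene known only by a clone name (0.992), the tubulin TUBB6 (0.984) and POLR1A, the largest subunit of RNA polymerase I (0.984).

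In GRCh37, the build of the files, the members lie apart on several chromosomes, and their positions by GENCODE are YAP1 at chr11:101981178-102104155 (plus strand), WWTR1 at chr3:149235022-149454501 (minus), TEAD1 at chr11:12695968-12966284 (plus), LATS1 at chr6:149979289-150039241 (minus), LATS2 at chr13:21547175-21635725 (minus), AMOTL1 at chr11:94439597-94609913 (plus), AMOTL2 at chr3:134074189-134094321 (minus), AJUBA at chr14:23440386-23451760 (minus), ANKRD1 at chr10:92671853-92680844 (minus) and AXL at chr19:41725128-41767671 (plus). Exons of other genes cover 11.8% of the canonical YAP1 transcript and 11.4% of that of WWTR1 (by the antisense gene WWTR1-AS1), and 0% to 5.52% of the other members. Reads that overlap 2 genes are counted for neither in the mode used, and the annotation used for counting may hold other overlaps.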

How the data were processed

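For the 27 U2OS libraries, the files hold raw whole-number counts, which the authors deposited without normalization, 1 value for each gene symbol. According to the methods and processing notes, adapters were removed with Trim Galore 0.6.0, STAR 2.7.3a mapped the reads to hg19, Samtools filtered them on mapping quality, and HTSeq 2.0.0 assigned them to exons in union mode without regard to strand. Reads on overlapping genes were dropped, so members may be counted in part where the annotation used for counting holds an overlapping gene. The 5 HTSeq summary lines, 16.8% to 19.1% of each library's total, were left out. Groups came from the labels, and the annotation used for counting is not given in the sources used here.

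Each comparison was fitted on its own 6 libraries (12 for interactions) with edgeR 4.0.16 in R 4.3.3 (TMM scaling, filterByExpr with a minimum count of 10 and total of 15, quasi-likelihood test, Benjamini-Hochberg adjustment over all genes tested), tested first on simulated data. The SE is the log2 fold change divided by the square root of F. CPM are counts scaled to a common library size per the usual definition, with TMM factors over all libraries. Alternatives were DESeq2 1.42.0, a joint fit, median-of-ratios scaling, other count filters, a replicate block and each library left out. Same-numbered replicates did not deviate together (r from −0.025 to 0.036 over 18 comparisons), so no block was used. Likeness is Pearson r of log2 CPM with a prior count of 2.

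The members and lists were chosen with earlier results of these data known. Named genes were the members, MMP2, CTGF, CYR61, the up to 3 other genes of each pathway list with the largest called change over the whole expansion of the control, and the 3 genes most like each of the 4 members with the widest span of group means. Features of the proteins are not reported here.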

Additional observations from a re-analysis of the deposited data

Results flagged for a closer look

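In 4 members the change over the whole expansion differed between a knockdown line and the control by the interaction test of edgeR. In MMP2sh1 the log2 change was higher than in the control by 0.35 for WWTR1 (2.14 beside 1.79), by 0.29 for TEAD1 (0.33 beside 0.05) and by 0.38 for AMOTL1 (0.70 beside 0.33). In MMP2sh2 it was higher by 0.29 for AJUBA (−1.11 beside −1.41). MMP2 itself was at 19.8% of the control in overconfluent MMP2sh1 and at 56.9% in MMP2sh2, and both lines were set against the same control libraries. The same terms in the other knockdown line were 0.25 ± 0.09 for WWTR1 (adjusted p = 0.0928), −0.07 ± 0.07 for TEAD1 (adjusted p = 0.686) and 0.11 ± 0.07 for AMOTL1 (adjusted p = 0.486) in MMP2sh2, and 0.18 ± 0.07 for AJUBA (adjusted p = 0.159) in MMP2sh1, and differences between the 2 lines in these terms were not tested.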

How the results depend on the processing

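Of the 105 called member changes, none changed direction under any alternative, and their log2 values moved by at most 0.025 under other tools, scalings, filters or the block and by at most 0.098 with a library left out. The count of members called moved by more than 1.5 times in a joint fit of all 27 libraries, to 5 for subconfluent MMP2sh2 against control, to 5 for subconfluent MMP2sh1 against MMP2sh2, and to 2 for confluent MMP2sh1 against MMP2sh2. The MMP2sh2 interaction had 2 called members where each library had to hold 10 counts. The labels do not say whether the samples are paired by the replicate numbers. With them as a block, 5 members were called for subconfluent MMP2sh1 against MMP2sh2, 5 of the 105 called changes were lost, and no other count of members moved by as much.

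With each library left out in turn, the members called numbered 0 to 2 (subconfluent) and 2 to 5 (overconfluent, lowest without MMP2sh1 replicate 3) for MMP2sh1 against control, 1 to 4 (subconfluent, lowest without control replicate 2) and 1 to 3 (overconfluent) for MMP2sh2 against control, 3 to 5 (confluent) and 1 to 4 (overconfluent) between the knockdown lines, 1 to 4 for the MMP2sh1 interaction and 1 to 2 for the MMP2sh2 interaction. The TEAD1 difference over the whole expansion of the control, not called, lay between −0.000364 without overconfluent replicate 1 and 0.0814 without overconfluent replicate 2. Without TMM factors the mean CPM of members were 0.944 to 1.04 times those given. For 41 of the 90 groups of member values this shift was at least the SD of the 3 replicates. With 3 replicates a group the smallest differences are the least certain, and the cause of lost calls was not tested.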
